A study of Bos taurus with 138 samples.

Results

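A set of 100 bovine genes was examined whose messenger RNAs were lower in polysomes than in whole-cell RNA at each of 6 stages, from the oocyte to the blastocyst. Levels are in CPM, the count of a gene divided by the total of its library or pool and multiplied by 1000000. At each stage, the mean CPM of the polysome pools (fractions F8-F10 of a sucrose gradient, summed per gradient) was divided by the mean CPM of the transcriptomes after adding 1 to both. Genes were ordered by the highest of their 6 log2 ratios, and the 100 lowest of the 16706 gene symbols in the table were taken. The polysome and transcriptome values therefore chose the members and are given below as a description, with no test. A gene could only reach the limit of -2.42 if its mean transcriptome level was at least 4.34 CPM at every stage. This held for 5588 genes, called the comparison genes here, of which the members were 1.79%.

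The libraries came from Bos taurus oocytes and embryos at the germinal vesicle (GV), metaphase II (MII), 2-cell, 8-cell, morula and blastocyst stages. Oocytes were taken from slaughterhouse ovaries, MII oocytes were matured in vitro, and embryos were fertilised in vitro with semen of 1 Holstein bull and cultured, so that all groups are in vitro material without a genetic change. All material for gradients was treated with cycloheximide, which holds ribosomes on the RNA, and its lysate was cleared by centrifugation before 10 fractions were collected, whereas each transcriptome was made from 20 whole oocytes or embryos without a gradient. There were 2 gradients (A and B) and 3 transcriptomes (A, B and C) per stage, 138 libraries in all. RNA of the fractions was isolated with Trizol, a step that the study does not describe for the transcriptomes. Clearing, the gradient, the amount of input and possibly RNA isolation thus differed between the compared groups together with ribosome loading. These cannot be told apart in the ratio to the transcriptome. A blastocyst holds both trophectoderm and inner cell mass, and in such bulk samples fewer cells of a type and less RNA per cell cannot be told apart.

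Ribosomes load onto a messenger RNA one after another, so that an actively translated message sediments deep in a gradient while stored messages and free messages stay near the top. Oocytes hold many messages in a stored, untranslated form and draw on them during maturation and the first divisions, before the embryo transcribes its own genome. In the gradients used here, the study took F1 and F2 as mostly free RNA and F8-F10 as polysomes. The study classed F3-F5 as RNA bound to single ribosomes (monosomes), with F6-F7 as intermediate. The same groups, F3-F5 and F6-F7, were used as pools for the tests below.

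Totals ranged from 1229382 to 17342859 counts in the 120 fraction libraries and from 3269386 to 11812567 in the 18 transcriptomes. Summed polysome pools held 22543737 to 39380638 counts, so that 3 counts, the limit that a count of 0 allows, were worth 0.0762 to 0.133 CPM. Of the 1200 polysome pool values of the members, 60 were at 3 counts or fewer, with a median of 293 counts. These limits cover counting error only. The summed oocyte markers were 21139 to 27221 CPM in GV transcriptomes, and the trophectoderm markers 5660 to 6221 CPM in those of blastocysts. The inner cell mass markers summed to 250 to 327 CPM in blastocyst transcriptomes, below the 623 to 948 CPM of 8-cell embryos and the 667 to 762 CPM of morulae. One library stood apart: the oocyte markers summed to 816 CPM in blastocyst transcriptome A, against 47.3 and 71.5 CPM in B and C. These markers include the member OOSP2, whose own level makes up most of that sum in A. Without blastocyst transcriptome A, 93 of the 100 genes were chosen again. Among the 8-cell transcriptomes, cumulus and granulosa markers summed to 1549 CPM in A and to 383 and 487 CPM in B and C. The same markers summed to 609 to 856 CPM in GV, 531 to 761 CPM in MII and 495 to 575 CPM in 2-cell transcriptomes. In later stages they summed to 55.4 to 66.4 CPM (morula) and 53.2 to 60.5 CPM (blastocyst). Their part in the members' values was not tested.

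The median member had a log2 ratio of polysomes to transcriptome of -4.04 in MII oocytes, the lowest of the stages, followed by 2-cell (-3.88), morula (-3.57) and 8-cell (-3.56) embryos. The ratio was less far from 0 in GV oocytes (-3.02) and blastocysts (-2.995). The comparison genes were also below 0 at each stage, with medians between -1.10 in MII oocytes and -0.68 in GV oocytes. The highest ratio of a member fell in blastocysts for 43 genes and in GV oocytes for 30, and the lowest in MII oocytes for 41. These counts were not made for the comparison genes, whose median was also lowest in MII oocytes, so they are not read as particular to the members. Both polysome pools lay below all 3 transcriptomes at every stage for all 100 members, which the rule makes likely, and for 31.5% of the comparison genes. The members took 3.47% to 3.97% of all counts in GV transcriptomes and 0.430% to 0.548% in GV polysome pools, and 1.45% to 1.56% against 0.144% to 0.178% in blastocysts. Their median transcriptome level was 128 CPM in GV oocytes, where that of the comparison genes was 60.2 CPM.

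**Figure D1:**
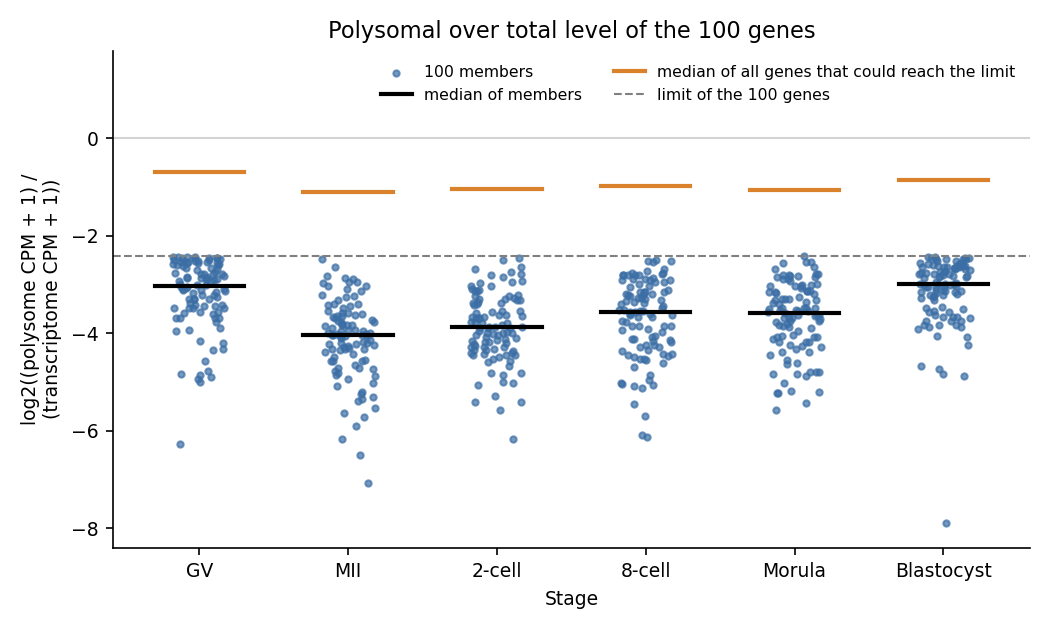
Log2 ratio of polysome pools to transcriptomes (y axis, CPM with 1 added) at each stage (x axis) for the 100 members (points, 1 per gene), with the median of the members in black, the median of the comparison genes in orange and the limit of the rule dashed. All points lie at or below -2.42, since that chose them, and the median of the members is deepest in MII oocytes at -4.04.

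The gene with the lowest maximum was MIER1, a transcriptional co-repressor that recruits histone deacetylases. Its transcriptomes read 38.3, 42.3 and 41.8 CPM in GV oocytes, 55.2, 70.3 and 61.2 CPM in MII oocytes and 75.2, 90.3 and 91.8 CPM in 2-cell embryos, and its polysome pools 0.333 and 0.299, 0.0312 and 0.0956, and 0.643 and 1.004 CPM. In the later stages its transcriptomes read 45.6, 51.4 and 45.9 CPM (8-cell), 54.2, 45.04 and 52.3 CPM (morula) and 30.9, 41.6 and 28.2 CPM (blastocyst), with pools at 0 and 0.231, 0 and 0.813, and 1.03 and 1.85 CPM. The message was thus present in every transcriptome and below 2 CPM in every polysome pool, its ratio being highest in blastocysts at -3.83.

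DHX36, an RNA helicase that unwinds G-quadruplexes, followed with a maximum of -3.75 in morulae, where its transcriptomes read 153, 192 and 179 CPM and its pools 11.7 and 12.5 CPM. SNRPD1, a core Sm protein of the spliceosomal particles, had its lowest ratio in MII oocytes and its highest in blastocysts. In MII oocytes its transcriptomes read 578, 458 and 405 CPM and its pools 2.87 and 2.33 CPM, a ratio of -7.06. In blastocysts its transcriptomes read 428, 259 and 255 CPM and its pools 11.8 and 33.2 CPM, a ratio of -3.74. Its pools differed widely in morulae, at 57.7 CPM in gradient A and 9.40 CPM in gradient B, but both stayed below the lowest transcriptome of 652 CPM.

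The other members among the 20 lowest had maxima between -3.66 and -2.90. ACTR3, a subunit of the complex that nucleates branched actin, stood at -3.66, and ACTR6, an actin-related protein of a chromatin remodelling complex, at -3.27. SGO2, which protects cohesion at centromeres in meiosis, reached -3.25, CEP290, a protein of the base of the cilium, -3.20, and MRE11, a nuclease of DNA double-strand break repair, -3.20. DCAF13, which takes part in ribosomal RNA processing, stood at -3.17, FAR1, a fatty acyl-CoA reductase, at -3.15, PPP4R2, a phosphatase regulatory subunit, at -3.10 and SENP6, a SUMO protease, at -3.03. PTPRQ, a receptor-type phosphatase, reached -3.03, NAP1L1, a histone chaperone, -3.02, SNRNP48, a protein of the minor spliceosome, -2.99, and FAM76B -2.99. RAD21, the subunit that closes the cohesin ring, stood at -2.98, SEC63, which acts in protein import into the endoplasmic reticulum, at -2.97, HNRNPU, an abundant nuclear RNA-binding protein, at -2.95 and EIF5B, a GTPase that joins the ribosomal subunits, at -2.90.

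The limit itself cut through a continuous series of values. The last members inside were ARL6 at -2.43, HDAC2 at -2.43, HMGB3 at -2.43, HAT1 at -2.42 and SENP7 at -2.42. The first genes outside were VPS26A at -2.41, SUZ12 at -2.40, FCHO2 at -2.40, TRA2B at -2.40 and NDC80 at -2.40. The list changed with the replicates used, 56 of its genes being chosen again from gradient B alone and 70 from gradient A alone, while all 100 stayed over 2-fold lower in polysomes than in the transcriptome at every stage in both cases.

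When the rule was applied to gradient A with transcriptomes A and B alone, 70 of the 100 genes it chose were members. In gradient B and transcriptome C, which had no part in that choice, the median maximum of those 100 genes was -2.36, against -2.65 in the libraries that chose them. In the held-out libraries 95 of the 100 were over 2-fold lower in polysomes at all 6 stages, a state reached by 21.0% of the 5760 genes that could have been chosen. The held-out gradient and transcriptome differed in clearing, input and the other steps named above, as the choosing ones did. These values therefore describe repeatability and cannot tell ribosome loading from those steps. The highest held-out value was 0.97 for STK31, a gene singled out after its value was seen.

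Because F1-F7 took no part in the choice, these libraries were examined next to ask where in the gradient these messages lay. They were low there too. The median over the members of the mean log2 ratio to the transcriptome over the 6 stages was -3.70 in F1-F2 (quartiles -4.05 to -3.23), -4.01 in F3-F5 (-4.31 to -3.55) and -3.95 in F6-F7 (-4.28 to -3.69). The comparison genes had medians of -1.32, -1.15 and -1.29 in the same pools. None of the 100 members had a mean ratio above 0 in any of the 3 pools, a count not made for the comparison genes. Summed over the whole gradient, F1-F10, the members stood at a median of -3.66 and the comparison genes at -1.05. These ratios share the transcriptomes with the rule and are therefore a description.

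**Figure D2:**
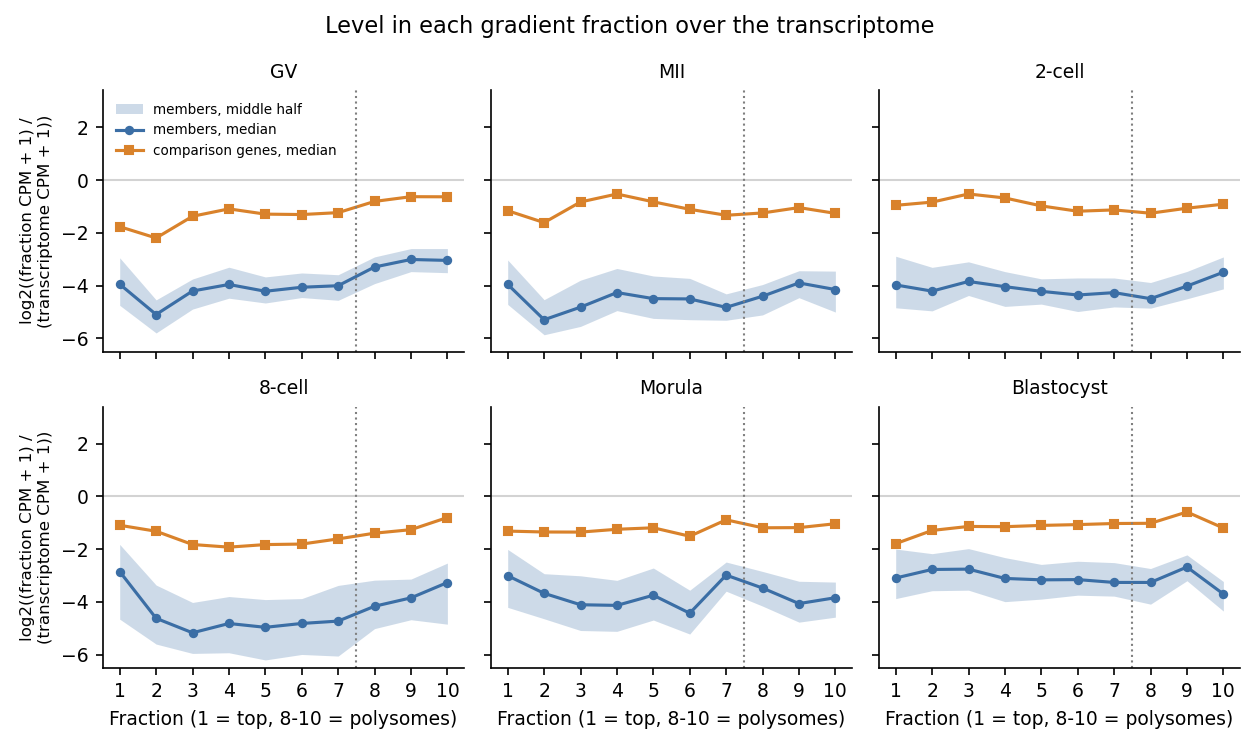
Log2 ratio of each gradient fraction to the transcriptome (y axis, CPM with 1 added) against the fraction number (x axis, 1 at the top of the gradient) in the 6 stages, with the median of the members and the range between their quartiles in blue and the median of the comparison genes in orange. The dotted line separates F1-F7 from the polysomes, and the median of the members lies below that of the comparison genes in all 60 combinations of stage and fraction.

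Fraction by fraction, 55 members were over 2-fold below the transcriptome in all 60 combinations of stage and fraction, and 90 were below it in all 60. These counts over all 60 were not made for the comparison genes. In a single combination 39.5% (blastocyst F9) to 67.5% (GV F2) of the comparison genes were over 2-fold below. In the free RNA fraction F1 the number over 2-fold below was 100 in both kinds of oocyte and 99 at the 2-cell stage, and then 86 at the 8-cell stage, 86 for morulae and 91 for blastocysts. The shares of the comparison genes in F1 were 63.3% (GV), 52.3% (MII), 49.3% (2-cell), 51.4% (8-cell), 55.2% (morula) and 65.5% (blastocyst). In the pool of F1-F7, 98 members were over 2-fold below the transcriptome at all 6 stages, as were 27.0% of the comparison genes, and 59 were below the limit of the rule, as were 4.35%. Only 27 of the members were among the 100 genes with the lowest maxima in F1-F7. The replicates used also changed the list of members, and their spread was not separated here from a difference between the 2 parts of the gradient. RAD21 was one of those low throughout, with 12.4 and 11.5 CPM in the F1-F7 pools of GV oocytes and 17.4 and 13.4 CPM in the polysomes, against transcriptomes of 141, 127 and 119 CPM.

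The exceptions were KIF3A, a motor subunit of intraflagellar transport, and PDCD4, an inhibitor of the translation initiation helicase, both in blastocysts and both named after their values were seen. KIF3A read 2411 CPM in F1 of gradient B and 0 in F1 of gradient A, and at most 15.8 CPM in any other fraction of these gradients. Both F1 libraries were among the 4 fraction libraries under 3000000 counts, and without those 4 KIF3A was below the 2-fold line while SLC35B3 stood at -0.98 in blastocysts. PDCD4 read 130 and 0.622 CPM in F1 and 69.9 and 72.8 CPM in F2, so that its ratio for F1-F7 in blastocysts was -0.22, and -0.40 without the 4 libraries. At the other 5 stages its F1-F7 ratio lay between -4.90 and -3.29.

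**Figure D3:**
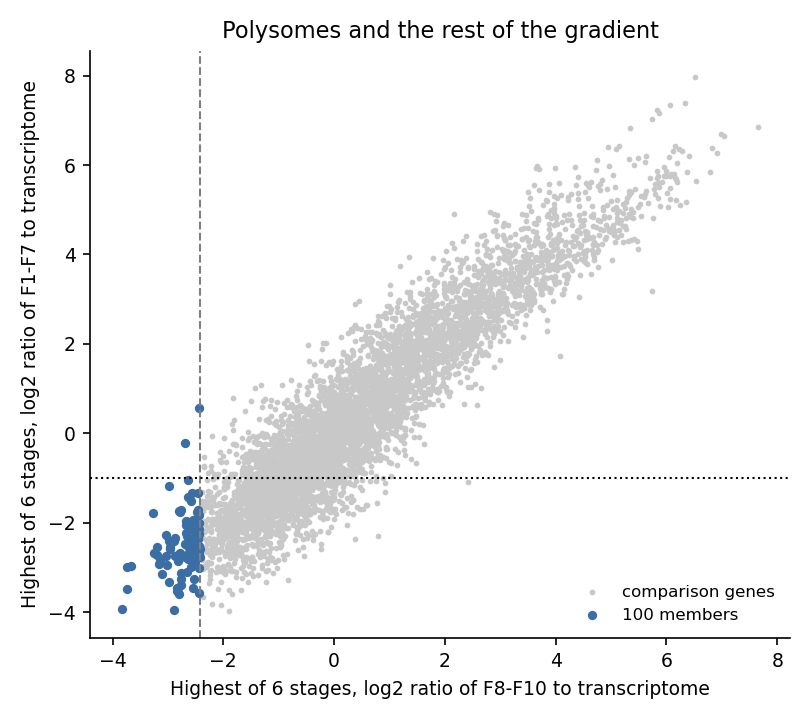
Highest of the 6 log2 ratios to the transcriptome in F1-F7 (y axis) against the highest in F8-F10 (x axis), CPM with 1 added, for the 100 members in blue and the other comparison genes in grey, 1 point per gene. The dashed line marks the limit that chose the members, the dotted line a 2-fold lower level, and 98 members lie below the dotted line.

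Within the gradient, where clearing and library making were shared, few members were called different between pools. The test compared pools of fractions over the 12 gradients with edgeR's quasi-likelihood test and Benjamini-Hochberg adjustment over all genes tested, each stage weighing equally. Between F6-F7 and F3-F5, 1 of the 100 members was lower and 0 were higher, where 1.34% and 1.15% of the 14813 genes tested were. Among the comparison genes 1.61% were lower and 2.06% higher in the same edgeR test. At an unadjusted p under 0.05, 14 members were lower and 2 higher, and DESeq2 called 5 members lower and 2 higher. The unadjusted and DESeq2 counts have no share of all genes beside them and are not read as a result about the members. The median log2 difference was -0.07 for the members (quartiles -0.59 to 0.28), -0.19 for all genes and -0.13 for the comparison genes. The member called was PAIP1, a partner of the poly(A)-binding protein that promotes initiation, with a log2 difference of -0.91 ± 0.24 (SE, adjusted p = 0.0424 in edgeR). Its pools were lower in F6-F7 without overlap at 4 stages, for instance 749 and 467 CPM in F6-F7 of MII oocytes against 1327 and 1250 CPM in F3-F5. With the gradient as a replicate block, 2 members were called lower. The call was lost, leaving 0 members, when either gradient of GV oocytes, MII oocytes or 2-cell embryos or gradient B of blastocysts was left out, and without the 4 fraction libraries under 3000000 counts.

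Between F3-F5 and F1-F2, 3 members were lower and 0 higher, where 3.92% and 2.76% of all genes and 7.53% and 3.54% of the comparison genes were. At an unadjusted p under 0.05, 17 members were lower and 3 higher, and DESeq2 called 14 members lower and 0 higher. Here too the unadjusted and DESeq2 counts have no share of all genes beside them and are not read as a result about the members. The median log2 difference of the members was -0.61 (quartiles -0.91 to -0.10), against 0.17 for all genes and -0.0003 for the comparison genes, and it was below 0 at each stage, from -1.47 in 8-cell embryos to -0.20 in GV oocytes. The genes called were DEK, a chromatin architectural protein, at -1.78 ± 0.51 (SE, adjusted p = 0.0326 in edgeR), HNRNPU at -1.55 ± 0.45 (adjusted p = 0.0331) and NPM1, a nucleolar chaperone of ribosome assembly, at -1.31 ± 0.35 (adjusted p = 0.0219). They did not meet the rule for named genes, which asks for separate pools at 5 stages, and are named because they are the genes counted. DEK read 8.12 and 7.25 CPM in F1-F2 of MII oocytes and 1.60 and 2.15 CPM in F3-F5. In blastocysts its pools overlapped, at 31.9 and 66.2 CPM in F1-F2 and 23.1 and 55.9 CPM in F3-F5. Scaling by library totals alone left 0 of the 3 calls, as did leaving out either gradient of GV oocytes, MII oocytes or 2-cell embryos. Leaving out either gradient of blastocysts left 1 member called lower, and without gradient B of 8-cell embryos or of morulae 7 were. A change of these differences from early to late stages was called by edgeR's interaction test for 0 of the 100 members in either contrast, where 0% of all genes passed for F6-F7 minus F3-F5 and 2.44% for F3-F5 minus F1-F2. At an unadjusted p under 0.05, 5 and 9 members did, again without a share of all genes, and no other tool was run for it. The level in F8-F10 over that in F3-F5 is a description, since F8-F10 chose the members. Its median log2 was 0.34 for the members and 0.23 for the comparison genes. It was above 0 for 69 members, a count not made for the comparison genes.

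Levels of the members in F1-F7 changed with development. Comparing the late stages (8-cell, morula and blastocyst) with the early ones (GV, MII and 2-cell) by edgeR in the 12 pools of F1-F7, 40 members were higher and 11 lower, where 24.9% and 33.9% of the 14975 genes tested were. Among the comparison genes 29.7% were higher and 30.2% lower. The median log2 difference was 0.67 for the members (quartiles -0.14 to 1.79), -0.37 for all genes and -0.05 for the comparison genes.

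Of the genes that rose without overlap between early and late pools, XPO1, the main receptor for nuclear export, changed most, by 4.03 ± 0.50 on the log2 scale (SE, adjusted p = 8.07e-05 in edgeR). Its early F1-F7 pools read 1.52 and 0.751 CPM (GV), 1.75 and 0.405 CPM (MII) and 0.893 and 1.32 CPM (2-cell), and its late pools 5.22 and 5.99 CPM (8-cell), 26.4 and 9.55 CPM (morula) and 32.3 and 29.8 CPM (blastocyst). CD2AP, an adaptor between membrane proteins and actin, rose by 3.76 ± 0.49 (adjusted p = 0.000109 in edgeR) and CUL3, the scaffold of a family of ubiquitin ligases, by 3.53 ± 0.42 (adjusted p = 5.80e-05). For CUL3 the early pools read 1.72 to 3.38 CPM and the late pools 5.77 to 36.1 CPM. All 3 genes were also higher in late transcriptomes, XPO1 for example with 24.9 to 33.5 CPM in 2-cell embryos and 146 to 209 CPM in 8-cell embryos, while its polysome pools read 1.81 and 0.502 CPM and then 8.16 and 7.76 CPM.

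Of the genes that fell, PAIP1 dropped by 3.72 ± 0.23 on the log2 scale (SE, adjusted p = 9.21e-07 in edgeR). Its F1-F7 pools read 699 and 651 CPM in GV oocytes, 1024 and 1018 CPM in MII oocytes and 1149 and 1140 CPM in 2-cell embryos, and then 101 and 167 CPM, 36.3 and 59.5 CPM, and 23.4 and 41.7 CPM in the later stages. Its transcriptomes read 12956, 14724 and 13410 CPM in GV oocytes and 454, 528 and 860 CPM in 8-cell embryos. PTPRQ fell by 3.39 ± 0.34 (adjusted p = 1.71e-05 in edgeR) and OOSP2, an oocyte-secreted protein, by 3.25 ± 0.29 (adjusted p = 8.87e-06). OOSP2 is itself 1 of the oocyte markers summed above. It read 678 CPM in blastocyst transcriptome A, most of the 816 CPM of markers in that library, and 15.1 and 32.0 CPM in B and C. Its blastocyst ratio was -7.90 with and -4.59 without that library. DPPA3, a maternal-effect protein that protects DNA methylation in the zygote, was the 1 member of the list of oocyte and maternal effect genes. It fell by 0.95 ± 0.19 (adjusted p = 0.00189 in edgeR), its F1-F7 pools reading 169 and 162 CPM in GV oocytes and 78.3 and 56.2 CPM in blastocysts, and its pools overlapped between early and late stages.

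**Figure D4:**
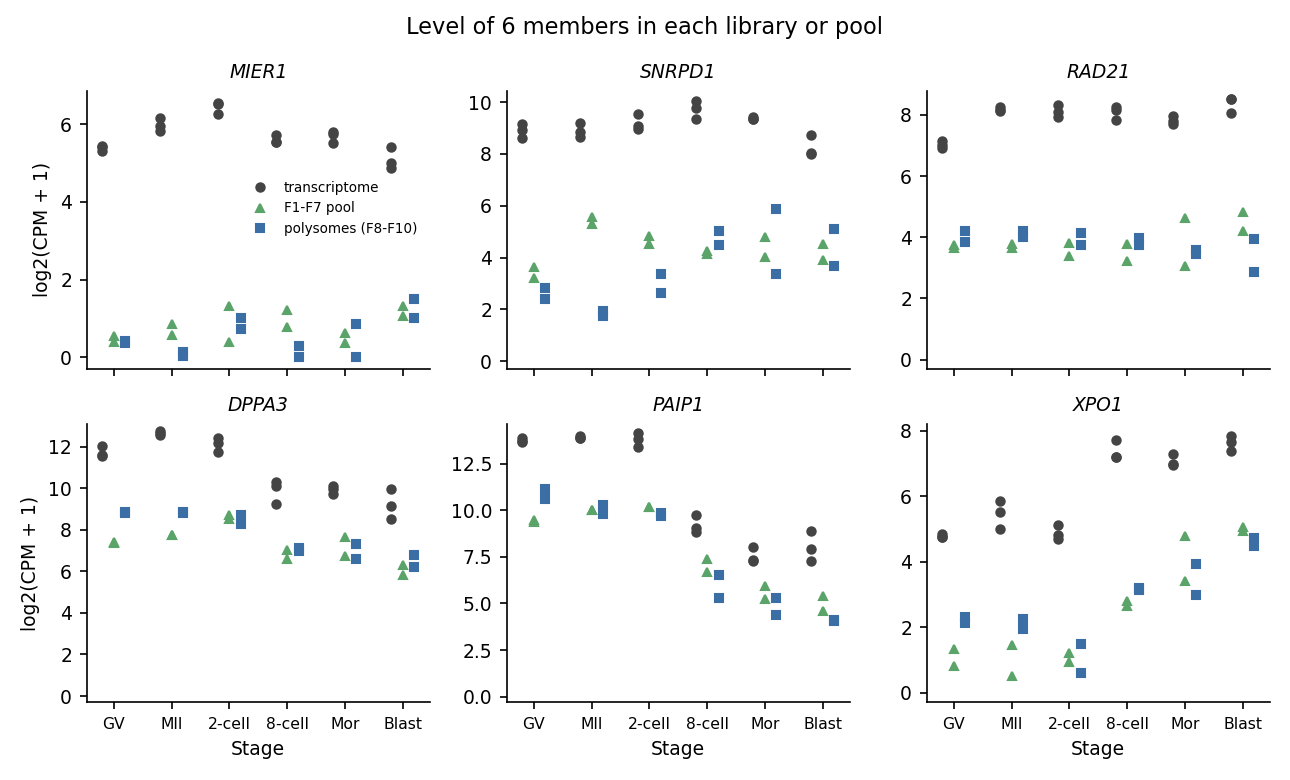
Log2(CPM + 1) (y axis) of 6 members by stage (x axis; Mor, morula; Blast, blastocyst), with 1 point for each transcriptome (grey circles), each F1-F7 pool (green triangles) and each polysome pool (blue squares). For all 6 genes every pool lies below every transcriptome of its stage, in levels that fell with development for PAIP1 and rose for XPO1.

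The changes in F1-F7 were set beside those of the transcriptomes. For the transcriptomes the change is the log2 ratio of the mean CPM over the late stages to that over the early stages, with 1 added to both. For F1-F7 it is edgeR's difference with TMM scaling, averaged over stages on the log scale, so the sizes of the 2 changes are not like measures. Of the 40 members higher in late F1-F7 pools, 33 had a higher mean in late than in early transcriptomes, 20 of them over 2-fold, with a median log2 change of 1.15 in the transcriptomes and 2.15 in F1-F7. The other 7, DHX36, SENP6, WDR26, SEC62, ACBD3, CENPK and CCP110, had a lower mean in late transcriptomes. CCP110, a centriole protein singled out after its values were seen, stood at -1.60 in the transcriptomes and rose by 1.78 ± 0.52 in F1-F7 (SE, adjusted p = 0.0141 in edgeR). All 11 members lower in F1-F7 were over 2-fold lower in the transcriptomes, with medians of -3.23 in the transcriptomes and -2.14 in F1-F7. Over all 100 members 24 were over 2-fold higher and 26 over 2-fold lower in late transcriptomes, close to the 26.2% and 27.2% of the comparison genes. The set thus held genes with higher levels early and genes with higher levels late.

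**Figure D5:**
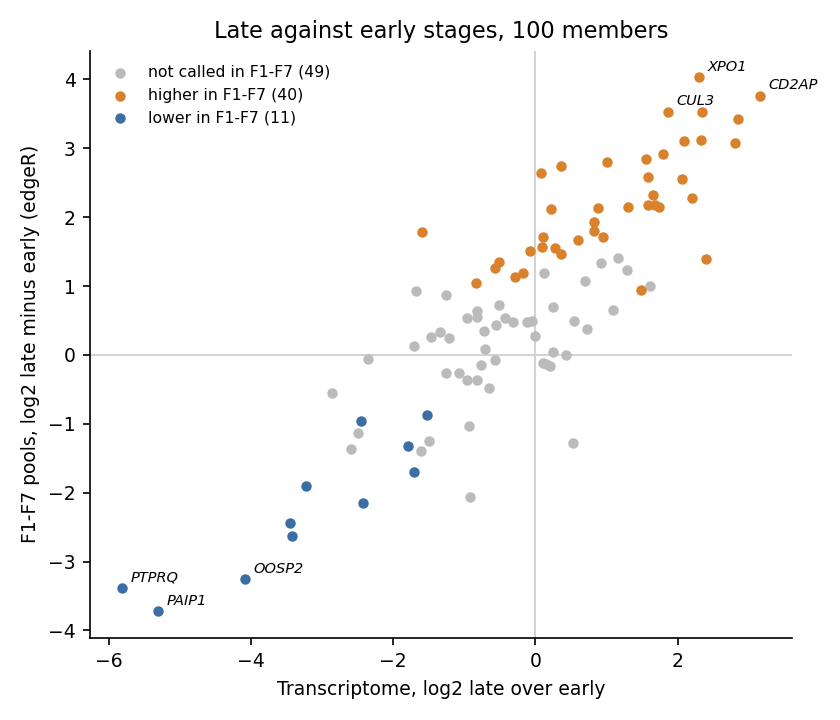
Log2 change from early to late stages in the F1-F7 pools (y axis, edgeR) against that in the mean of the transcriptomes (x axis) for the 100 members, 1 point per gene, with genes called higher in orange (40), lower in blue (11) and not called in grey (49). The 11 genes called lower all lie below -1 on the transcriptome axis.

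By function, 27 of the members fell in 14 of the 23 gene lists used and 73 in none. The lists were made from symbol patterns and are incomplete, so being in none does not mean lacking the function. The oocyte-secreted protein gene OOSP2, for example, was not in the list of oocyte and maternal effect genes. Cohesin and condensin genes, which hold and fold chromosomes, gave RAD21, ESCO1 and SMC4 out of 20 comparison genes in that list. Of these 20, 13 were over 2-fold lower in polysomes at all stages (65.0%), against 22.5% of all comparison genes. RAD21, ESCO1 and SMC4 are among the 13, and these ratios chose them. The lists were made with earlier results of these data known, so the shares are a description. In F1-F7, 14 were over 2-fold lower, in ratios that share the transcriptomes with the rule. The 22.5% is also the share to set beside the polysome counts of the lists below. The cohesin acetyltransferase ESCO1 had a maximum of -2.87 and the condensin subunit SMC4 of -2.81. The cohesin subunits SMC1B and SMC3 and the cohesin loader NIPBL followed at -2.31, -2.13 and -2.21. The list did not move as a block, since the condensin subunit NCAPD2 had a maximum of 2.64 and the loader subunit MAU2 of 3.88, and MAU2 lay above the transcriptome at all 6 stages with a lowest ratio of 1.33.

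Kinetochore and spindle checkpoint genes gave SGO2, the kinetochore motor CENPE (-2.59) and the centromere protein CENPK (-2.65). Of the 45 in the list, 19 were over 2-fold lower at all stages (42.2%). Centrosome, spindle and kinesin genes gave CEP290, KIF18A (-2.47) and KIF3A, with 26 of 85 over 2-fold lower (30.6%). DNA replication and repair genes gave RAD21 again, the DNA damage kinase ATM (-2.61) and TOPAZ1, with 27 of 82 over 2-fold lower (32.9%). TOPAZ1 entered only because its symbol begins like that of a topoisomerase, and the repair nuclease gene MRE11 was not in the list. Spliceosomal particle genes gave SNRPD1, SNRNP48 and SNRPB2 (-2.53), with 8 of 39 over 2-fold lower (20.5%). The chromatin list gave the deacetylases SIRT1 (-2.79) and HDAC2 and the histone methyltransferase EZH2 (-2.52), with 22 of 91 (24.2%). The spliceosomal and chromatin shares are close to that of all comparison genes. EZH2 and SUZ12, the latter just outside the limit, are partners in 1 repressive complex.

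Smaller counts came from other lists. Nuclear pore and transport genes gave RANBP2 (-2.81) and XPO1, with 9 of 44 over 2-fold lower at all stages (20.45%). Ubiquitin ligases and deubiquitinases gave CUL3 and RANBP2 again, the latter a SUMO ligase and not a ubiquitin ligase, with 48 of 178 (27.0%). The traffic list gave SEC63 and SEC62 (-2.80), both of the endoplasmic reticulum import channel, with 44 of 141 (31.2%). EIF5B was the 1 member of 54 translation factors, TRA2A of 58 SR and related splicing proteins, HNRNPU of 26 hnRNP proteins and ZNF830 of 84 zinc finger genes. In those lists 17 (31.5%), 24 (41.4%), 7 (26.9%) and 25 (29.8%) genes were over 2-fold lower at all stages, and 4 of the 15 oocyte and maternal effect genes (26.7%).

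Lists without a member were those of the cytosolic and the mitochondrial ribosomal proteins, nuclear oxidative phosphorylation, the mitochondrial genome, histones, proteasome subunits, chaperones, lysosomal proteins, and noncoding hosts and unnamed loci. Over 2-fold lower at all stages were 5 of 74 cytosolic ribosomal protein genes, 10 of 69 mitochondrial ribosomal protein genes, 8 of 73 nuclear oxidative phosphorylation genes and 0 of 12 histone genes, and 8 of 39 proteasome, 20 of 67 chaperone, 3 of 31 lysosomal and 1 of 4 noncoding entries. The 13 genes of the mitochondrial genome, which are translated inside the organelle and not by cytosolic polysomes, had 0 members, although 11 were over 2-fold lower in F8-F10 at all stages. In F1-F7, 0 of those 13 were over 2-fold lower at all stages, where 98 of the members were.

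Outside the lists, and named after the values were seen, the members included the nucleolar genes NCL (-2.89), NPM1 (-2.87) and GAR1 (-2.77), the adenosine methylation genes METTL14 (-2.56) and YTHDF3 (-2.77), and the SUMO proteases SENP6 and SENP7. NCL, a nucleolin that acts in ribosomal RNA synthesis, read 2152, 2013 and 1519 CPM in the transcriptomes of morulae, where its polysome pools read 195 and 143 CPM. NPM1 reached its lowest ratio of -6.498 in MII oocytes, with transcriptomes of 878, 765 and 829 CPM and pools of 7.79 and 8.47 CPM.

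All 100 members matched a protein-coding gene in RefSeq. The median genomic span was 34480 bases for the members (quartiles 21530 to 75180) and 29467 for the comparison genes (11717 to 69344), so that the ranges overlapped widely. Counts that were not whole, which arise where reads were shared between transcripts, made up a median of 6.88% of values for a member and 10.9% for a comparison gene. For NPM1, NAP1L1, IER3IP1, RSL24D1, EIF5B and PAIP1 over 50% of the values were not whole, and their levels are uncertain where reads could be divided with a related sequence. The part of clearing, RNA isolation, input, transcript length and base composition in the low gradient levels of the members was not tested.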

How the data were processed

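The study's authors pooled oocytes or embryos, separated lysates on sucrose gradients, and sequenced 10 fractions of 2 gradients and 3 transcriptomes per stage with an oligo-dT template-switching kit and tagmentation. The deposited values are expected counts per gene symbol made by the authors with Salmon, not normalised. The genome is given as ARS-UCD1.2 in the study's methods and as UMD 3.1 in the submitters' processing notes. No sequence was used here, and no coordinates are given because the builds differ.

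Samples were grouped by stage and fraction from their labels. Expected counts were summed per gradient into pools, rounded to whole numbers for tests, and divided by totals for CPM. Pools were tested with edgeR 4.0.16 (R 4.3.3; TMM, filterByExpr, quasi-likelihood, Benjamini-Hochberg adjusted p under 0.05), with DESeq2 1.42.0, the likelihood ratio test, other scalings, no filter, each gradient left out and a replicate block as alternatives. The scripts were tested on simulated data. Descriptions were made in Python 3.11.15. The members and the gene lists were chosen with earlier results of these data known. Named genes were the 20 lowest maxima, 5 on each side of the limit, up to 3 per direction and contrast among called genes whose pools did not overlap in 5 stages, or between all early and late pools, and members of lists. Same-lettered fractions come from 1 gradient and are paired by source. The deviations of pools of 1 gradient from their group means had a median correlation of 0.05 (-0.06 to 0.23, 18 pairs). Nothing in the sources ties letters across stages, where the median was -0.01. Replicates are separate pools, and p-values measure the spread between them. Among 78 replicate pairs compared, 0 were identical.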

Additional observations from a re-analysis of the deposited data

How the results depend on the processing

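Counts of the fraction contrasts, which were small, moved most. No shares of all genes are given beside the called counts in this section. A change in calls over all genes thus cannot be told apart from a change in the members. Lower in F6-F7 than in F3-F5 were 6 members by the likelihood ratio test, 5 by DESeq2, 2 with the gradient as a replicate block and 0 without the 4 libraries under 3000000 counts (chosen after seeing the data), and 0 to 5 when a gradient was left out, with 3 and 5 without gradient A or B of 8-cell embryos. Higher were 2 by the likelihood ratio test and 2 by DESeq2 (0 to 1). Lower in F3-F5 than in F1-F2 were 9 by the likelihood ratio test, 14 by DESeq2, 5 with DESeq2 size factors and 0 with library totals (0 to 7), the 0 being reached without either gradient of GV oocytes, MII oocytes or 2-cell embryos and the 7 without gradient B of 8-cell embryos or of morulae. Higher was 1 by the likelihood ratio test (0 to 2). The cause was not tested. The replicate block changed no other count by over 1.5 times. Late against early counts ran from 34 to 40 higher and 10 to 15 lower when a gradient was left out. A pseudocount of 5 kept 63 of the 100 members and leaving out a library or gradient 56 to 93, 56 without gradient A, while the other scalings and settings kept 73 to 98. All 100 stayed over 2-fold lower in polysomes at all stages under each membership setting, with a highest maximum of -1.01 at pseudocount 5. In F1-F7, 95 to 98 were over 2-fold lower under the alternatives, added after seeing the data. Choosing on gradient B with transcriptomes B and C, also added then, left 87 of 100 genes over 2-fold lower in the held-out libraries, a count without a share of all genes beside it. TMM and DESeq2 size factors moved the median ratio of expressed genes by 0.09 and -0.11. Depth limits polysome pools at 3 counts or fewer, 60 of the 1200 of the members, to an upper bound.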
